A study of Mus musculus with 9 samples.

Results

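The microglial identity genes are a set of 48 genes, of 54532 in the count table, that encode surface receptors, signalling proteins and transcription factors of microglia, and they were followed here in the hippocampus of N4 Ube3am-/p+ mice. All mice in both groups carried the Ube3a mutation (tm1alb) on the maternal allele, had been backcrossed to obtain mice susceptible to audiogenic seizures, and had been put through audiogenic seizure testing on postnatal days 22, 24 and 26. On postnatal day 21 they received an intracerebroventricular injection of 0.5 nmol of either Ant-134, a locked nucleic acid antagomir that binds and silences miR-134 (5 mice, called Ant-134 here and antagomir 134 in the labels), or a scrambled oligonucleotide (4 mice, called Scr). Brains were taken on postnatal day 27 after saline perfusion, and each library was made from poly-A RNA of the hippocampus on the injected side of 1 mouse, so each replicate is an animal. No wild-type or untreated mice were in this comparison, and mature miR-134 was not measured in these libraries. Over the tests the study reports less severe seizures in Ant-134 mice and a tendency toward better survival. Treatment, seizure severity and survival to the day of sampling therefore cannot be told apart here.

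The members were chosen by name from genes known to mark microglia, with earlier results of the same Ant-134 and Scr comparison known, in which genes of this kind were lower. The differences between the groups are therefore given as a description, with counts over all genes beside them. All 48 members passed the filter on low counts that kept 19782 genes, and each member was covered by 18 to 4580 read pairs in every library, of library totals between 28583298 and 41978113. At this depth a count of 3 stood for 0.0715 to 0.105 CPM (counts scaled to the library's total), and no member was at 0 in any library. Defining microglial markers, among them *Tmem119*, *P2ry12*, *Sall1* and *Siglech*, were detected in all 9 libraries, so the label fits the genes, while the tissue is whole hippocampus, in which microglia are one cell type among many.

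Microglia are the resident macrophages of the brain parenchyma, seeded from the yolk sac and kept alive by signals through the CSF1 receptor. In the resting state they survey their surroundings with purinergic and chemokine receptors, under the transcription factors PU.1, IRF8 and SALL1 and with TGF-β as a maintenance signal. Receptors that pair with the ITAM adaptors TYROBP and FCER1G signal through the kinases LYN and SYK to phospholipase C and actin regulators, and so govern phagocytosis. In the hippocampus microglia prune synapses, clear dying cells and respond to seizures.

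The members spanned a wide range of levels per transcript length. *Ctss*, which encodes the lysosomal protease cathepsin S, was the highest with a mean of 62.3 FPKM (fragments per kilobase of exon, scaled to the library's depth) over the 9 libraries. *Tyrobp*, the ITAM adaptor, followed with 28.3 FPKM and *Csf1r* with 21.5 FPKM. The next were *Itgb5* at 15.97, *Cx3cr1* at 12.9 and *Fcer1g* at 11.7 FPKM. At the other end stood *Runx1* with 0.251 FPKM, *Myo1g* with 0.341, *Dock2* with 0.747 and *Ptprc* with 0.838 FPKM. Some members are not restricted to microglia: *Itgb5*, *Tgfbr1* and *Slco2b1* are also expressed by other brain cells, and *Ptprc*, *Lyn*, *Vav1*, *Dock2*, *Myo1g* and *Bin2* by blood leukocytes. This is not a full list, and which other members are shared with leukocytes or border macrophages was not examined here.

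**Figure D1:**
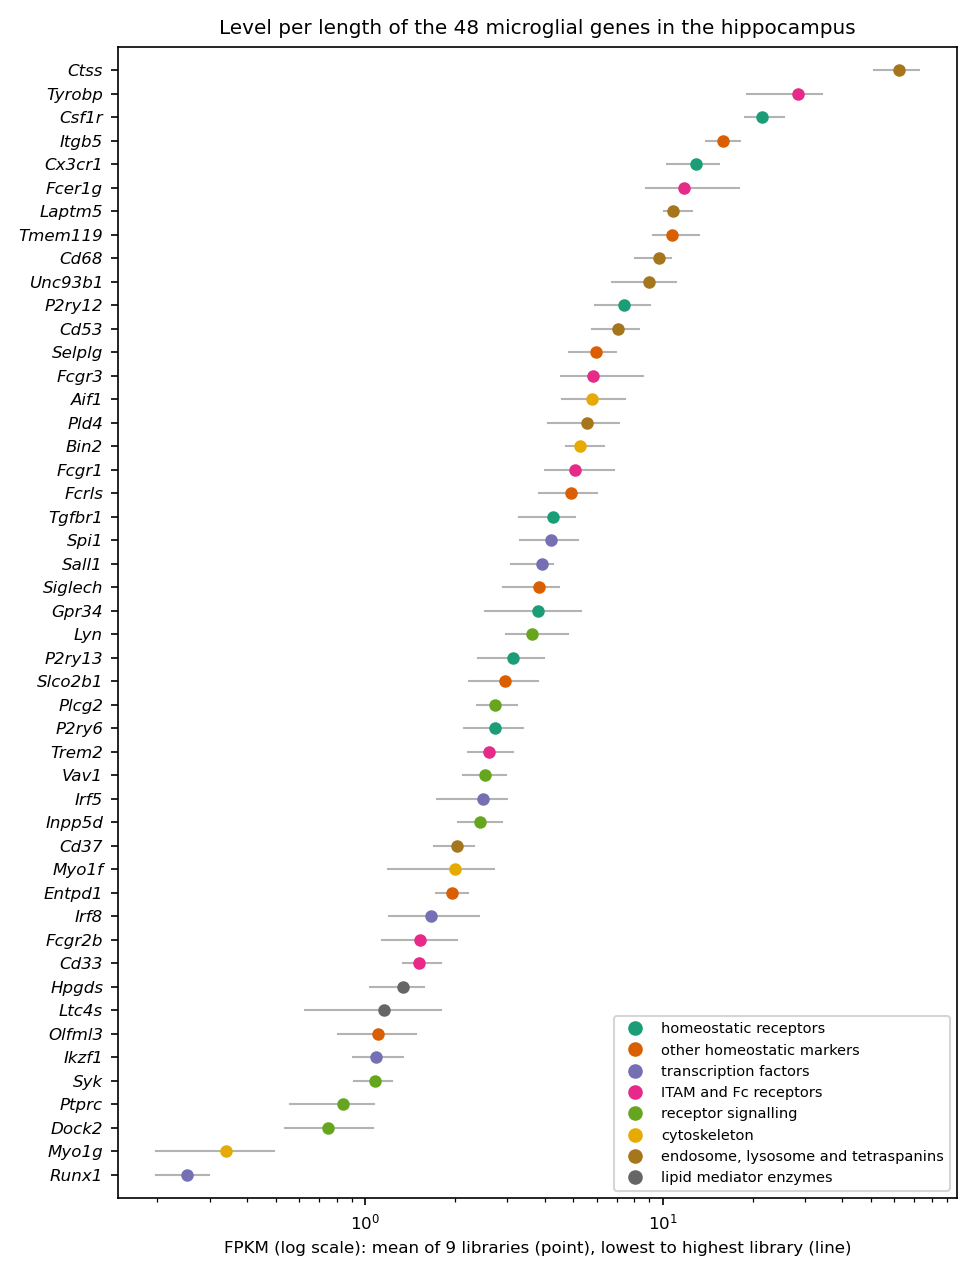
Mean FPKM of each of the 48 members over the 9 libraries (points, log axis, coloured by role), with lines from the lowest to the highest library. The levels run from 0.251 FPKM for Runx1 to 62.3 FPKM for Ctss, and the lines within a gene are short beside the differences between genes.

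PU.1, the product of *Spi1*, is a factor that opens many macrophage enhancers and promoters, so the sequences around the annotated starts of the members were read for its long recognition word. RefSeq promoters (GRCm38.p6, 250 bases before to 50 after a gene's start) were matched for 38 of the 48 members, and *Spi1*, *Tyrobp*, *Gpr34*, *Bin2*, *Lyn*, *P2ry6*, *Tmem119*, *Csf1r*, *Unc93b1* and *Selplg* were not matched. The word GAGGAAGT, searched on both strands, was found in 8 of the 38 (21.1%), against 3.69% of the 27025 genes with a promoter and 3.42% of the 13063 tested genes with one. These 8 are shown because they carry the word. Each line is 60 bases of the strand of the gene, 5′ to 3′, with the match in capitals (ACTTCCTC is the word on the opposite strand).
Pld4: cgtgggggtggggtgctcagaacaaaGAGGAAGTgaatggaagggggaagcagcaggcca
Inpp5d: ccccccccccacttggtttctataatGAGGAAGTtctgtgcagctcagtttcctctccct
Vav1: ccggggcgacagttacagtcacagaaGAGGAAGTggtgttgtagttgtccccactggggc
Slco2b1: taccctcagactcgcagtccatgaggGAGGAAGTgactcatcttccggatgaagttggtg
Hpgds: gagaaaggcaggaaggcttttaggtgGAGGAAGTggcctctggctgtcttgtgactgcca
Ctss: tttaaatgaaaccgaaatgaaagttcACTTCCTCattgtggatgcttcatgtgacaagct
Cd53: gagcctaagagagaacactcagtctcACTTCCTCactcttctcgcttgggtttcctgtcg
Cd37: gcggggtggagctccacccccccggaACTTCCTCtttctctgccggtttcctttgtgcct
In *Pld4*, *Cd53* and *Slco2b1* the match began 6 to 9 bases after the annotated start, and in the other 5 it began 2 to 49 bases before it. All 8 matches were thus within 50 bases of the start, a window that makes up 31.7% of the promoter positions and held 43.2% of the 1073 matches over all promoters. The members whose CPM did not overlap between the groups were *Pld4*, *Inpp5d*, *Myo1g* and *Unc93b1*. The promoter of *Myo1g* did not hold the word, and *Unc93b1* had no matched promoter. The whole promoters of *Pld4* and *Inpp5d* are given next. That of *Pld4* is chr12:112760405-112760704 on the plus strand and that of *Inpp5d* is chr1:87620062-87620361 on the plus strand, with the same word in capitals.
Pld4: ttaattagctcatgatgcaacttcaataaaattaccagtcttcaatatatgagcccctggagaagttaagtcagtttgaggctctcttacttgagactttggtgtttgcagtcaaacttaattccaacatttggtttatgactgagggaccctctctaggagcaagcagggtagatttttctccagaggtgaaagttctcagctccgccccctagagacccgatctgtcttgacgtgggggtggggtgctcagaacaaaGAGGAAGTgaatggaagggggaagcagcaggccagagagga
Inpp5d: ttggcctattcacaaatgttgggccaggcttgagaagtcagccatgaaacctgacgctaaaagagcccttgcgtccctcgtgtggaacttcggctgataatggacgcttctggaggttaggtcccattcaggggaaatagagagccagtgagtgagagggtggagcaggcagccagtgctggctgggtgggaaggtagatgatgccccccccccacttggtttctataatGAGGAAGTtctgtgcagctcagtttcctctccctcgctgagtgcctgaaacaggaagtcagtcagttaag
A shorter core, GAGGAA, which is contained in the long word, was found in 26 of the 38 members (68.4%), against 31.3% of all promoters and 30.5% of those of tested genes. *Myo1g* was not among the 26. The composite word of PU.1 and IRF was found in *Cd68* and *Fcgr2b* (5.26%, against 3.16% of all and 2.73% of tested genes). The RUNX word TGTGGTT was found in 3 members, *Fcrls*, *Runx1* and *Siglech* (7.89%, against 6.09% and 4.52%), and its shorter core TGTGGT in 13 (34.2%, against 18.9% and 15.3%). The AP-1 word TGANTCA was found in *Cd68*, *Slco2b1* and *Trem2* (7.89%, against 8.97% and 6.56%). These are matches of letters, and binding was not measured.

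All but 1 of the 48 members had a lower fitted level in the Ant-134 mice. The log2 fold change (Ant-134 minus Scr) was below 0 for 47 members and above 0 for *Runx1* alone, and over all tested genes it was below 0 for 48.8%. The median over the members was -0.17 and the median over all tested genes 0.0026. Of the 48, 13 had an unadjusted p below 0.05 and a lower level under edgeR (quasi-likelihood test, at the study's threshold), against 2.69% of all tested genes, and 0 had one with a higher level, against 1.49%. After Benjamini-Hochberg adjustment over the 19782 genes 0% of all genes and 0 members passed 0.05. DESeq2 and edgeR's test with no filter on low counts, run as alternatives, each called 2 members after adjustment, *Myo1g* and *Pld4*, among 16 and 14 genes in all. The 13 were *Csf1r*, *Selplg*, *Itgb5*, *Trem2*, *Inpp5d*, *Vav1*, *Dock2*, *Aif1*, *Myo1f*, *Myo1g*, *Laptm5*, *Pld4* and *Unc93b1*. For 4 members, *Myo1g*, *Pld4*, *Unc93b1* and *Inpp5d*, each Ant-134 mouse was below each Scr mouse in CPM, which was so for 0.895% of all tested genes. The reverse order, found in 0.647% of all tested genes, occurred in 0 members. Because the members were selected on this contrast, these shares are read as a description of the set. The median of the 44 members whose groups overlapped was -0.16, and as they were selected in the same way this value is no check on the selection.

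For the other 44 members the CPM of the groups overlapped. The within-group coefficient of variation of the members had a median of 12.6% (range 5.94 to 36.5%), and that of all tested genes a median of 10.3%. Of the 4 Scr mice, 1 stood high: Scr replicate 1 was the highest Scr library for 37 of the 48 members, whereas it was the highest for 23.8% of all tested genes. Without Scr replicate 1 the count of members lower at an unadjusted p below 0.05 was 7 in place of 13, the median -0.12 and the number below 0 was 41. The 7 were *Csf1r*, *Trem2*, *Inpp5d*, *Aif1*, *Myo1g*, *Pld4* and *Unc93b1*, and these stayed below that p whichever of the 9 libraries was left out. Without Scr replicate 2 the count was 9 and the number below 0 again 41, and without Scr replicate 3 the count was 19.

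**Figure D2:**
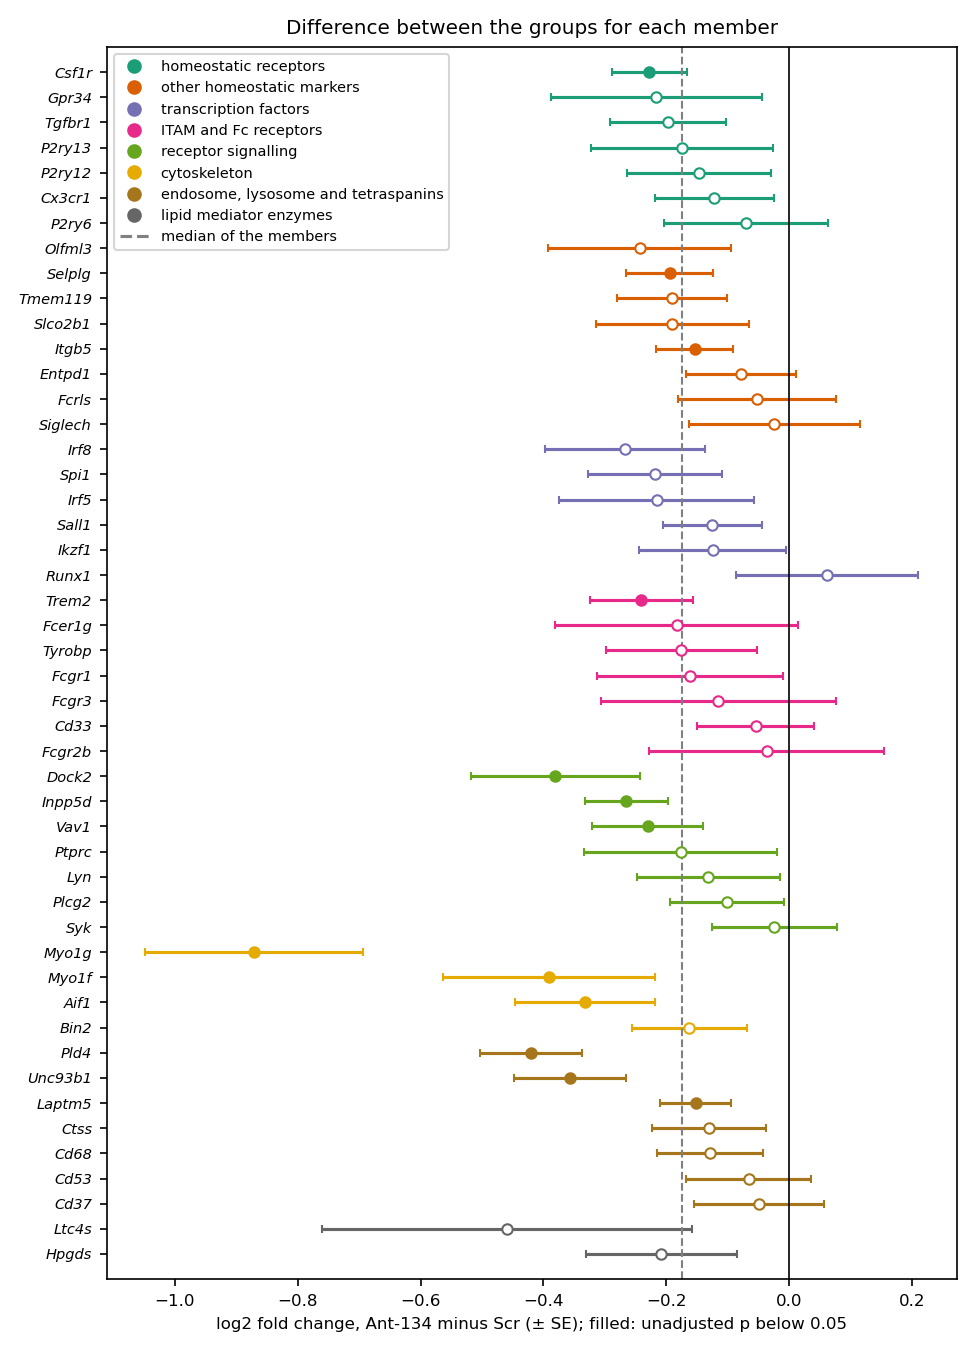
Log2 fold change (Ant-134 minus Scr) of each member with its standard error from edgeR, grouped and coloured by role, filled where the unadjusted p was below 0.05 and with the median of the members as a dashed line. The points lie left of 0 for 47 members and right of it for Runx1, and Myo1g is the farthest left at -0.87.

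Read over the whole set, the order of the mice was uneven. The summed level of the 48 members was 826, 872, 793, 899.6 and 809.8 CPM in Ant-134 replicates 1 to 5 (840.0 ± 44.4, SD, n = 5) and 1050.5, 967, 889.7 and 898 CPM in Scr replicates 1 to 4 (951 ± 74.6, SD, n = 4). Ant-134 replicate 4 lay above the lowest 2 Scr mice, and the other 4 lay below all Scr mice. The median deviation of the members from the Scr mean on the log2 scale was -0.20, -0.13, -0.24, -0.03 and -0.26 in the Ant-134 mice and 0.14, 0.04, -0.09 and -0.08 in the Scr mice. Among the Ant-134 mice replicate 4 was the highest for 25 members, and replicates 5 and 3 the lowest for 20 and 18. In whole tissue, fewer microglia and less RNA of these genes per microglial cell cannot be told apart.

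The sexes of the mice were not recorded, and the libraries split on sex-linked genes. Ant-134 replicates 1 and 4 and Scr replicate 3 had 541 to 687 CPM of *Xist* and at most 0.164 CPM of the Y-linked gene *Ddx3y*, and the other 6 had at most 1.84 CPM of *Xist* and at least 52.2 CPM of *Ddx3y*. Within the 6 libraries with Y-linked expression (3 of each group), 46 of the 48 members had a lower mean log2 CPM in Ant-134, with a median difference of -0.24. Within the other 3 (2 Ant-134 and 1 Scr), 27 of 48 were lower and the median difference was -0.03. With a single Scr mouse the second set allows no test, and over all tested genes the share that was lower was 50.2% and 50.3% in the 2 sets. With the Y-linked level as a covariate 13 members passed an unadjusted p below 0.05, of which 12 were among the 13 named above, with *Ltc4s* (-0.62) in and *Myo1f* (-0.41) out, 46 were below 0 and the median was -0.17.

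**Figure D3:**
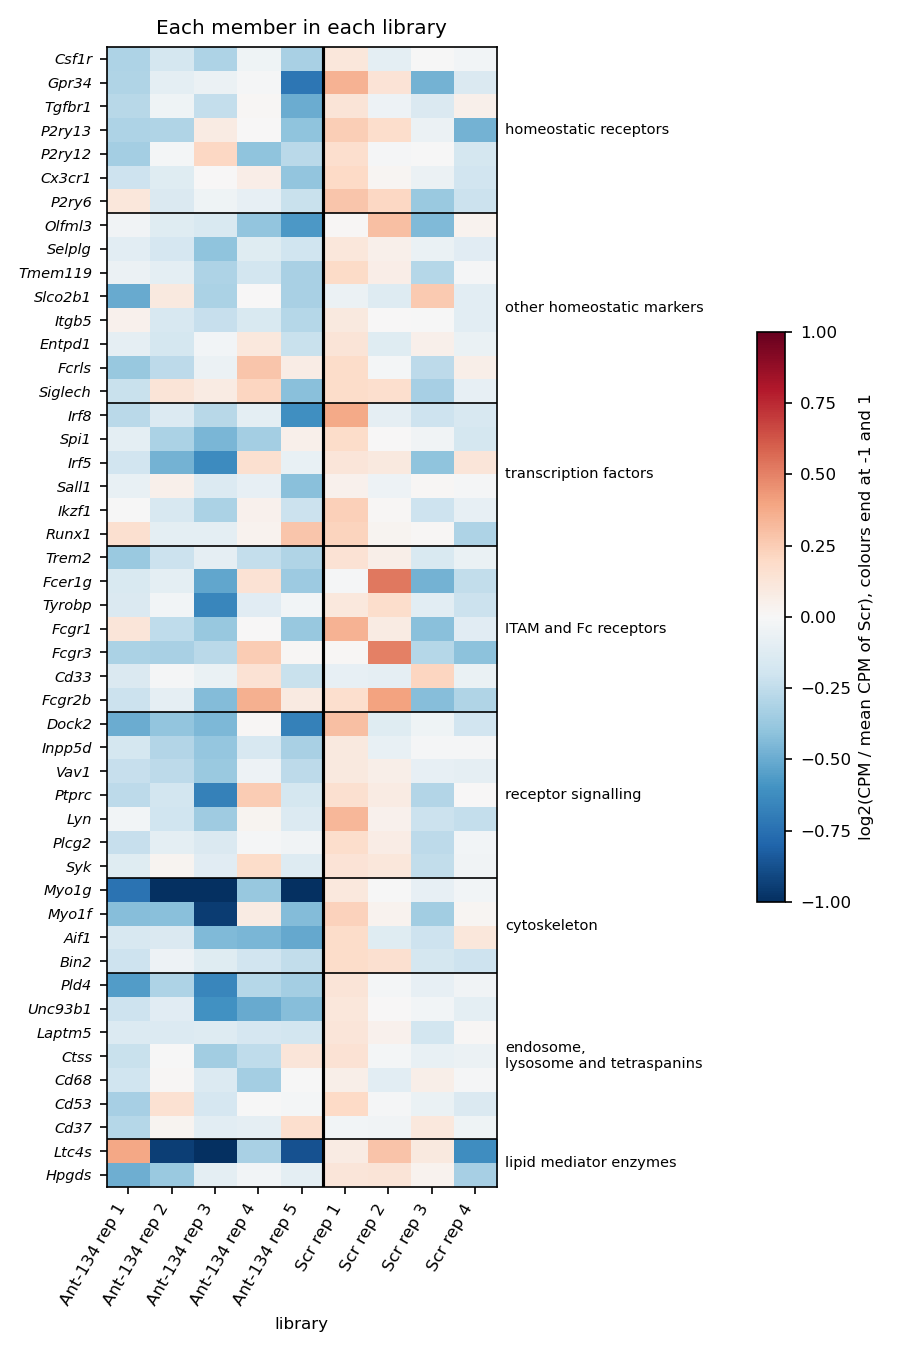
Log2 ratio of each member's CPM in each library to its mean in the Scr mice, with members in rows by role and libraries in columns (Ant-134 left of the line, Scr right of it). The column of Scr replicate 1 is the reddest of the Scr mice, Ant-134 replicate 4 is the palest of the Ant-134 mice, and the row of Myo1g is blue in all 5 Ant-134 columns.

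In what follows the CPM of single mice stand in the order of their replicate numbers, and a difference given without a unit is a log2 fold change (Ant-134 minus Scr), with its standard error (SE) after the ± sign. The receptors with which microglia sense nucleotides, chemokines and growth factors had a median log2 fold change of -0.17, and all 7 were below 0. *Csf1r* (ENSMUSG00000024621, chr18:61105572-61132149, GRCm38), the receptor for CSF1 and IL-34 on which microglial survival depends, is given first. *Csf1r* was 93.1, 102, 93.5, 112 and 92.4 CPM in the Ant-134 mice and 125, 108, 115 and 114 CPM in the Scr mice. Only Ant-134 replicate 4 reached into the Scr range, and the log2 fold change was -0.23 ± 0.06 (SE). In the annotation used here, whose model of *Csf1r* is longer than the one counted, its exons overlap those of *Hmgxb3* on the other strand. *Cx3cr1* was 53.1, 56.3, 61.4, 64.2 and 46.7 CPM in the Ant-134 mice and 70.3, 62.1, 59.01 and 53.8 CPM in the Scr mice. The fractalkine receptor thus overlapped broadly, with a log2 fold change of -0.12 ± 0.10 and 2 of the 5 Ant-134 mice below all Scr mice. *P2ry6* was 8.81, 7.36, 7.901, 7.696 and 6.98 CPM in the Ant-134 mice and 9.87, 9.36, 6.28 and 7.0 CPM in the Scr mice. This UDP receptor, the lowest of the group per length at 2.72 FPKM, had a log2 fold change of -0.07 ± 0.13. *P2ry12*, the ADP receptor that draws microglial processes to injury, was added after its values had been seen. *P2ry12* was 15.97, 19.9, 23.3, 15.2 and 16.7 CPM in the Ant-134 mice and 22.6, 20.03, 20.1 and 17.9 CPM in the Scr mice, and the highest of all 9 values was that of Ant-134 replicate 3. Its log2 fold change was -0.15 ± 0.12. The remaining receptors were *Tgfbr1*, the kinase subunit of the TGF-β receptor, with -0.20 ± 0.09, the lysophosphatidylserine receptor *Gpr34* with -0.22 ± 0.17 and the ADP receptor *P2ry13* with -0.17 ± 0.15.

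Other surface and secreted markers of the homeostatic state had a median of -0.17, with all 8 below 0. *Itgb5* was 62.4, 54.2, 51.9, 54.5 and 49.9 CPM in the Ant-134 mice and 64.9, 60.9, 60.5 and 56.5 CPM in the Scr mice. This integrin subunit, also made by other brain cells, had a log2 fold change of -0.15 ± 0.06, and its unadjusted p rose above 0.05 without Ant-134 replicate 3 (-0.14), Ant-134 replicate 5 (-0.12), Scr replicate 1 (-0.12) or Scr replicate 2 (-0.15) and, with all genes of any FPKM above 0 kept, on log2 FPKM with a pseudocount of 1 (-0.14). *Tmem119* was 25.96, 25.2, 21.8, 23.7 and 21.6 CPM in the Ant-134 mice and 30.9, 28.3, 22.1 and 26.7 CPM in the Scr mice. For this transmembrane protein, which in the brain is a marker of microglia and not of infiltrating monocytes, the low Scr replicate 3 lay among the Ant-134 mice and the log2 fold change was -0.19 ± 0.09. Its unadjusted p fell below 0.05 in 4 of the 12 other settings and in 3 of the 9 fits that left out 1 library. *Olfml3* was 7.31, 6.91, 6.76, 5.698 and 5.03 CPM in the Ant-134 mice and 7.58, 9.24, 5.51 and 7.67 CPM in the Scr mice. *Olfml3*, a secreted protein and the lowest of the group at 1.102 FPKM, had -0.24 ± 0.15 with wide overlap, and -0.12 without Scr replicate 2. *Selplg*, the ligand of P-selectin, was below all Scr mice in 4 of 5 Ant-134 mice, with -0.19 ± 0.07, and lost its unadjusted p below 0.05 without Scr replicate 1 (-0.16). The transporter *Slco2b1* (-0.19 ± 0.13) and the ectonucleotidase *Entpd1*, which is CD39 (-0.08 ± 0.09), were followed by *Fcrls* (-0.05 ± 0.13) and the lectin *Siglech* (-0.02 ± 0.14), whose differences were within 1 SE of 0.

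The transcription factors had a median of -0.17, and 0 of the 6 had an unadjusted p below 0.05 in the main fit. *Spi1* and *Irf8* each fell below that p in 2 of the 12 other settings and in 3 of the 9 fits that left out 1 library. *Spi1* was 11.6, 9.95, 9.005, 9.79 and 12.8 CPM in the Ant-134 mice and 14.04, 12.4, 12.1 and 10.98 CPM in the Scr mice. *Spi1*, which encodes PU.1, thus overlapped through Ant-134 replicates 1 and 5, and its log2 fold change was -0.22 ± 0.11. *Sall1* was 20.8, 22.6, 19.8, 20.6 and 16.3 CPM in the Ant-134 mice and 22.6, 21.1, 22.1 and 21.7 CPM in the Scr mice. *Sall1*, in the adult brain a factor of microglia among the immune cells, had 4 of 5 Ant-134 mice below all Scr mice, with replicate 5 the lowest, and without that mouse its difference was -0.060; with all mice it had a log2 fold change of -0.12 ± 0.08. *Irf8* was 10.8, 11.9, 10.8, 12.2 and 8.54 CPM in the Ant-134 mice and 17.05, 12.3, 11.3 and 11.7 CPM in the Scr mice. *Irf8*, the partner of PU.1, had -0.27 ± 0.13, with 1 Scr mouse far above the others; without that mouse, Scr replicate 1, it was -0.12. *Runx1* was 3.32, 2.78, 2.78, 3.05 and 3.61 CPM in the Ant-134 mice and 3.48, 3.03, 2.99 and 2.402 CPM in the Scr mice. *Runx1*, a factor of microglial development and the member with the lowest level per length, was the sole one above 0, at 0.06 ± 0.15. *Irf5* was at -0.21 ± 0.16, where 14.2% of its exonic bases overlap the more abundant *Tnpo3* on the other strand, and *Ikzf1* at -0.12 ± 0.12.

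The receptors that signal through ITAMs, and the Fc receptors, had a median of -0.16, with all 7 below 0. *Trem2* was 11, 12.2, 13.3, 12.1 and 11.5 CPM in the Ant-134 mice and 15.7, 14.8, 12.8 and 13.5 CPM in the Scr mice. *Trem2* (ENSMUSG00000023992, chr17:48346401-48354147), the lipid and ApoE receptor of microglia, was lower in 4 of 5 Ant-134 mice than in all Scr mice, with a log2 fold change of -0.24 ± 0.08. *Tyrobp* was 18.4, 19.99, 12.96, 18.9 and 19.99 CPM in the Ant-134 mice and 21.9, 23.1, 18.98 and 17.6 CPM in the Scr mice. Its adaptor *Tyrobp* (DAP12) overlapped, with -0.18 ± 0.12 and a low value in Ant-134 replicate 3, without which the difference was -0.080. *Fcer1g* was 9.96, 10.4, 7.72, 12.2 and 8.64 CPM in the Ant-134 mice and 11.03, 15.96, 8.01 and 9.37 CPM in the Scr mice. The other ITAM adaptor, *Fcer1g*, varied widely among the Scr mice and had -0.18 ± 0.20. *Cd33* was 10.97, 12.03, 11.6, 13.4 and 10.4 CPM in the Ant-134 mice and 11.5, 11.4, 14.1 and 11.6 CPM in the Scr mice. *Cd33*, a sialic acid-binding receptor and the lowest of the group at 1.51 FPKM, did not separate the groups (-0.05 ± 0.09). The Fcγ receptors *Fcgr1*, *Fcgr3* and *Fcgr2b*, of which the last is inhibitory, had -0.16 ± 0.15, -0.11 ± 0.19 and -0.04 ± 0.19. *Fcgr3* and *Fcgr2b* are related in sequence, so read pairs could be shared between them or left out by the counting.

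Downstream of these receptors, the signalling members had a median of -0.18 and all 7 were below 0. *Inpp5d* was 18.2, 16.7, 15.7, 18.3 and 16.4 CPM in the Ant-134 mice and 21.97, 19.5, 20.3 and 20.4 CPM in the Scr mice. *Inpp5d* (ENSMUSG00000026288, chr1:87620312-87720507) encodes SHIP1, the lipid phosphatase that limits signalling from TREM2 and Fc receptors; its groups did not overlap and its log2 fold change was -0.26 ± 0.07. *Dock2* was 7.01, 7.54, 7.26, 9.99 and 6.19 CPM in the Ant-134 mice and 12.2, 9.08, 9.62 and 8.67 CPM in the Scr mice. *Dock2*, an exchange factor for the GTPase RAC, was the lowest of the group at 0.747 FPKM and had -0.38 ± 0.14, with Ant-134 replicate 4 inside the Scr range; without Scr replicate 1 it was -0.27 and no longer had an unadjusted p below 0.05. The unadjusted p of *Dock2* was also above 0.05 in 4 of the 12 other settings, which were the replicate block and the 3 fits of log2 FPKM, the smallest of them -0.16 with a pseudocount of 1. *Lyn* was 15.4, 13.6, 12.2, 15.9 and 14.3 CPM in the Ant-134 mice and 19.7, 16.1, 13.5 and 13.2 CPM in the Scr mice. The kinase *Lyn* overlapped, with -0.13 ± 0.12, and the high value was again that of Scr replicate 1, without which the difference was -0.0066. *Plcg2* was 10.5, 11.5, 11.1, 12.2 and 12.04 CPM in the Ant-134 mice and 13.9, 13, 10.3 and 12.1 CPM in the Scr mice. *Plcg2*, the phospholipase that carries the signal on, had -0.10 ± 0.09, and -0.041 without Scr replicate 1. *Vav1*, another exchange factor for RAC, had -0.23 ± 0.09 with 4 of 5 Ant-134 mice below all Scr mice, and its unadjusted p rose above 0.05 without Ant-134 replicate 3 (-0.20), Scr replicate 1 (-0.20) or Scr replicate 2 (-0.21), and with a replicate block. *Ptprc*, which is CD45, had -0.18 ± 0.16 and the kinase *Syk* -0.02 ± 0.10.

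The 4 cytoskeletal members were all below 0, with a median of -0.36. *Myo1g* was 1.92, 1.46, 1.39, 2.46 and 1.52 CPM in the Ant-134 mice and 3.45, 3.19, 3.02 and 3.13 CPM in the Scr mice. *Myo1g* (ENSMUSG00000020437, chr11:6506548-6520965), an unconventional myosin of haematopoietic cells that links the plasma membrane to actin, was lower in each Ant-134 mouse than in each Scr mouse, by 45.3% in mean CPM and with a log2 fold change of -0.87 ± 0.18. It rested on 39 to 135 read pairs per library, and on log2 FPKM with a pseudocount of 1, which is larger than its level, the difference was -0.22, against -0.93 to -0.69 in the other settings, all with an unadjusted p below 0.05. *Aif1* was 9.05, 9.15, 7.47, 7.37 and 7.08 CPM in the Ant-134 mice and 11.5, 9.29, 8.77 and 10.9 CPM in the Scr mice. *Aif1*, which encodes the actin-bundling protein IBA1 that is used to stain microglia, had -0.33 ± 0.11 and 3 of 5 Ant-134 mice below all Scr mice. *Myo1f* was 8.501, 8.52, 5.91, 12.1 and 8.44 CPM in the Ant-134 mice and 13.4, 11.7, 8.95 and 11.6 CPM in the Scr mice. *Myo1f*, a related myosin, had -0.39 ± 0.17 with Ant-134 replicate 4 above 3 of the 4 Scr mice, and it kept an unadjusted p below 0.05 only without Ant-134 replicate 4 or Scr replicate 3, with -0.38 to -0.28 in the other 7 fits that left out 1 library. Of the 12 other settings 8 kept *Myo1f* below that p, and the Y-linked covariate and the 3 fits of log2 FPKM did not, with the smallest difference being -0.27. *Bin2* was 12.4, 13.8, 13.1, 12.5 and 12.01 CPM in the Ant-134 mice and 16.2, 15.9, 12.6 and 12.4 CPM in the Scr mice. *Bin2*, a membrane-curving protein of leukocytes, had -0.16 ± 0.09, since Scr replicates 3 and 4 lay among the Ant-134 mice.

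The endosomal, lysosomal and tetraspanin members had a median of -0.13, and 2 of these 7 separated the groups. *Pld4* was 15.4, 18.3, 14.4, 18.6 and 17.9 CPM in the Ant-134 mice and 24.8, 22.3, 21.4 and 22.1 CPM in the Scr mice. *Pld4* (ENSMUSG00000052160, chr12:112760655-112768990), a nuclease of endosomes that degrades nucleic acids before they reach Toll-like receptors, was 25.3% lower in mean CPM in the Ant-134 mice, with -0.42 ± 0.08. *Unc93b1* was 25.5, 27.2, 19.3, 20.8 and 21.9 CPM in the Ant-134 mice and 31.7, 29.5, 28.9 and 27.5 CPM in the Scr mice. *Unc93b1* (ENSMUSG00000036908, chr19:3935186-3949340), the chaperone that brings those Toll-like receptors to endosomes, was 22.1% lower, with -0.36 ± 0.09, although the highest Ant-134 mouse and the lowest Scr mouse were close. *Ctss* was 76.9, 89.7, 70.4, 75.2 and 97.7 CPM in the Ant-134 mice and 99.1, 88.4, 85.4 and 86.1 CPM in the Scr mice. *Ctss*, the most abundant member, had -0.13 ± 0.09, and Ant-134 replicates 2 and 5 were above 3 of the 4 Scr mice. *Laptm5* was 39.9, 39.8, 40.1, 39.1 and 38.6 CPM in the Ant-134 mice and 47.6, 45.2, 38.5 and 44.2 CPM in the Scr mice. *Laptm5*, a lysosomal membrane protein, had nearly equal levels in the 5 Ant-134 mice and -0.15 ± 0.06; Scr replicate 3 lay below them all, and without Scr replicate 1 or 2 the difference was -0.11 or -0.14 and its unadjusted p above 0.05. *Cd37* was 6.03, 7.51, 6.83, 6.91 and 8.24 CPM in the Ant-134 mice and 7.21, 7.19, 7.89 and 7.12 CPM in the Scr mice. The tetraspanin *Cd37*, the lowest of the group at 2.03 FPKM, had -0.05 ± 0.11. The lysosomal glycoprotein *Cd68*, which marks phagocytes, and the tetraspanin *Cd53* had -0.13 ± 0.09 and -0.07 ± 0.10.

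The enzymes of lipid mediators, 2 members, were both below 0, with a median of -0.33. *Hpgds* was 6.704, 7.25, 8.76, 9.203 and 8.77 CPM in the Ant-134 mice and 10.2, 10.3, 9.62 and 7.44 CPM in the Scr mice. *Hpgds*, the haematopoietic prostaglandin D synthase, had -0.21 ± 0.12. *Ltc4s* was 1.83, 0.728, 0.641, 1.11 and 0.761 CPM in the Ant-134 mice and 1.47, 1.702, 1.496 and 0.908 CPM in the Scr mice. *Ltc4s*, the leukotriene C4 synthase, had -0.46 ± 0.30 on 18 to 72 read pairs per library, the highest value of all 9 was that of Ant-134 replicate 1, and 26.4% of its exonic bases overlap *Gm26542* on the other strand.

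**Figure D4:**
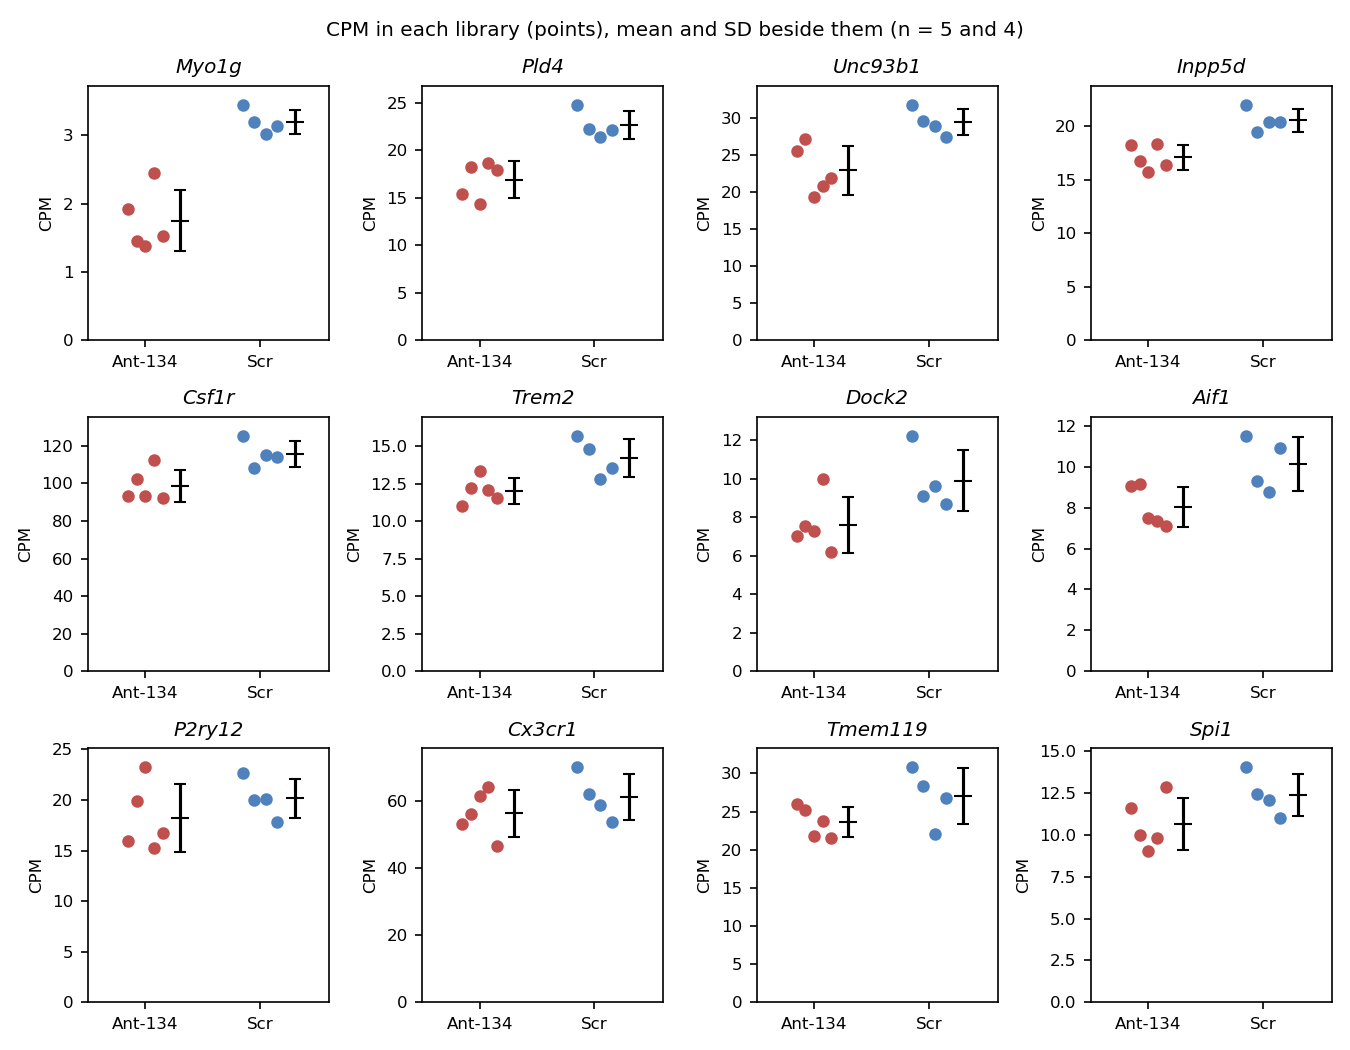
CPM of 12 members in each library (points) with the mean and SD beside them, from 0 on a linear axis that differs between panels (5 Ant-134 and 4 Scr mice). The groups do not overlap for Myo1g, Pld4, Unc93b1 and Inpp5d, and they overlap for Csf1r, Trem2, Dock2, Aif1, P2ry12, Cx3cr1, Tmem119 and Spi1.

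Further genes of the same cells and pathways, from lists that hold no member, were read beside them. Of 20 other genes that are high in microglia, 6 were lower at an unadjusted p below 0.05, 0 were higher, 14 were below 0 and the median was -0.14. Among the 6 were the complement genes *C1qa* (-0.21), *C1qb* (-0.14) and *C1qc* (-0.21), *Lgmn* (-0.14) and *Il10ra* (-0.37), and the summed level of the 20 was 565 to 591 CPM in Ant-134 and 604 to 680.1 CPM in Scr. Of 16 genes that rise in disease-associated microglia, 4 were lower (*Itgax*, *Axl*, *Ccl3* and *Ccl4*), 0 higher and the median was -0.08, with *Spp1* at 0.28 ± 0.38 and *Lpl* at 0.12 ± 0.07. Of the 4, *Itgax*, *Ccl3* and *Ccl4* rested on few read pairs per library, 10 to 42, 8 to 74 and 10 to 60. *Cst7* of that list, a cystatin, was at 0.35 ± 0.24 on 15 to 25 read pairs per library, with each Ant-134 mouse (0.629 to 0.688 CPM) above each Scr mouse (0.439 to 0.627 CPM), which was so for 0.647% of all tested genes. Of 25 further genes of ITAM and Fc receptor signalling, 3 were lower, among them *Pik3ap1* (-0.50) and *Ptpn6* (-0.31), 1 was higher, *Grb2* (0.10), an adaptor made by most cells, and the median was -0.05. Of 14 further transcription factors of macrophages 1 was lower, *Irf1* (-0.28), and the median was -0.04. Among 9 ligands of member receptors, *Csf1* (-0.23) and *Tgfb1* (-0.35) were lower and *Selp* (1.30, on 7 to 50 read pairs per library) was higher. The CSF1 receptor's other ligand *Il34* was at 0.04 ± 0.05 and *Cx3cl1*, the ligand of CX3CR1, at 0.01 ± 0.05. The members' shares stand beside 2.69% lower and 1.49% higher over all genes.

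Markers of other cells were read in the same libraries. Of 12 genes of perivascular and meningeal macrophages 11 were tested, 7 were below 0 and 4 above it, and the median was -0.04. At an unadjusted p below 0.05, 0 were higher and 3 were lower. These were *Stab1* (-0.28), and *Ms4a7* and *Cd209f* on only 12 to 74 and 5 to 65 read pairs per library. Those above 0 were *Mrc1* (0.15 ± 0.16), *Cd163* (0.32 ± 0.21), *Lyve1* (0.36 ± 0.33) and *Clec10a* (0.23 ± 0.32). The summed level of the 12 was 36.2 to 47.4 CPM in Ant-134 and 44.0 to 59.7 CPM in Scr, with no marker at 0 in any library. All 10 genes of meningeal fibroblasts were below 0 with a median of -0.43, 5 were lower at an unadjusted p below 0.05, and their sum was 344 to 735 CPM and 534 to 820.5 CPM. All 10 endothelial genes and all 8 genes of mural cells were below 0, with medians of -0.14 and -0.12 and 1 lower in each. Endothelial sums were 229.7 to 273 CPM and 245 to 322 CPM, and mural sums 159 to 191 CPM and 167 to 235 CPM. For astrocytes, oligodendrocytes and their precursors 0 genes passed in either direction, with medians of -0.0034, 0.01 and -0.03 over 10, 10 and 7 genes, and for neurons 1 of 10 was higher, with a median of 0.03. The oligodendrocyte sums varied widely among the Ant-134 mice, from 7801 CPM in replicate 5 to 13262 CPM in replicate 1, against 9868 to 10661 CPM in Scr. Of 10 genes of blood monocytes and neutrophils 7 were tested and 1 was lower (*Chil3*), of 14 lymphocyte genes 4 were tested with 0 called, the medians were -0.10 and -0.31, and the sums were 18.8 to 54.4 CPM against 40.8 to 55.6 CPM and 1.61 to 2.55 CPM against 2.15 to 4.25 CPM. Choroid plexus genes ranged from 74.0 to 2666 CPM among the Ant-134 mice and from 87.0 to 2092 CPM among the Scr mice in their sum, with a median log2 fold change of -0.20. The 6 erythrocyte genes summed to 69.2 to 403 CPM in Ant-134 and 44.3 to 92.1 CPM in Scr, 5 of them were above 0 with 0 called, *Slc4a1* was lower (-0.92), and their median was 0.81. The part that these other cells had in the lower levels of the members was not tested.

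**Figure D5:**
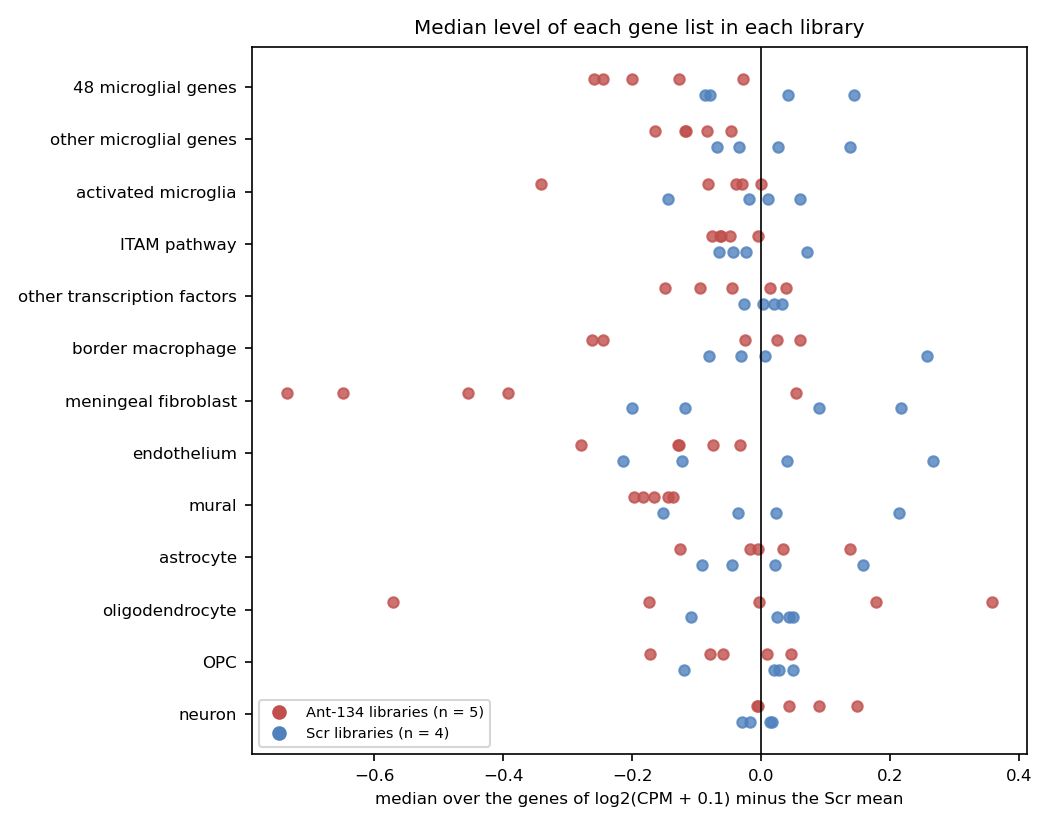
Median over the genes of a list of the log2 level (CPM plus 0.1) in each library minus the mean of the Scr mice, for the 48 members and 12 lists (Ant-134 above, Scr below in each row). For the members the Ant-134 mice run from -0.26 to -0.03 and the Scr mice from -0.09 to 0.14, and the astrocyte, neuron and oligodendrocyte rows are centred near 0. The oligodendrocyte row is wide among the Ant-134 mice, from -0.57 to 0.36.

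Since Ant-134 silences miR-134, the members were also searched for its sites, a search chosen after the levels had been examined. The mature miRNA has the sequence below (RefSeq, 22 bases), with the seed, bases 2 to 8, in capitals.
mmu-miR-134-5p: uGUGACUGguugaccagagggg
A site was CAGTCAC, which pairs with the seed, or AGTCACA, which is that site moved by 1 base and followed by A, in the longest protein-coding 3′ UTR (GENCODE M21, GRCm38). Of the 48 members 8 held one (16.7%): *Cd33*, *Cd53*, *Ctss*, *Fcgr1*, *Fcrls*, *P2ry13*, *Slco2b1* and *Syk*. Of 15278 tested genes with a 3′ UTR, 2973 held one (19.5%). The sites of *Ctss*, the most abundant member, and *P2ry13* are given with their flanks, 30 bases each and with the site in capitals.
Ctss: tttttctaacaAGTCACAaagatggaatat
P2ry13: gtcctccagccCAGTCACttcctcatctgt
The 8 with a site had log2 fold changes between -0.02 and -0.19, and *Myo1g* held none.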

How the data were processed

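Gene counts and FPKM were deposited for 9 hippocampal libraries. Per the labels and the study's methods, the authors base-called with CASAVA 1.8, mapped poly-A read pairs with HISAT2 2.0.5 to GRCm38 and counted them per gene with featureCounts 1.5.0-p3; whether counting used strand is not given in the sources used here. The deposited FPKM equal the counts divided by exonic length and library total, up to a constant of 0.978 to 1.01 per library.

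Counts were fitted in edgeR 4.0.16 (R 4.3.3; filterByExpr with a minimum count of 10, TMM, robust quasi-likelihood test, no covariate, 5 Ant-134 against 4 Scr), with p-values adjusted over 19782 genes. The biological coefficient of variation was 11.9%. CPM use TMM-scaled totals. Alternatives used DESeq2 1.42.0, limma 3.58.1 on log2 FPKM with pseudocounts of 1 and 0.1, other scalings and filters, a replicate block, a Y-linked covariate and each library left out in turn. The code was tested on simulated data. To look for duplicate deposits of one library, each pair of libraries of a group was compared, and the chi-square of a pair, averaged over genes, was 8.37 to 20.6, where 2 samplings of one library would give about 1.

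The members and the lists were chosen with earlier results of these data known. Members given in every mouse are, in each role group, the 2 with the highest mean FPKM, the lowest and the one with the largest absolute fold change, together with those whose groups did not overlap; all others are given by their fold change. *P2ry12* and *Myo1f* were added after their values were seen. Members were matched to the table by gene name. Protein sequences were not used here, and some single-gene values of the further lists are not reported here. The floor of 3 counts covers counting error only, since the libraries carry no molecular identifiers.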

Additional observations from a re-analysis of the deposited data

Results flagged for a closer look

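Each of the 48 members was read in both groups of mice, and in 6 of these 96 sets of values 1 mouse lay farther from the others of its group than Dixon's 95% critical value allows, where about 4.8 would be expected by chance. Of 18 further sets, the summed levels of all members and of each role in both groups, 0 held such a mouse. Scr replicate 3 was such a mouse in 4 of the 6. It had 22.8 CPM of *Slco2b1* against 17.4 to 18.3 CPM in the other Scr mice, and 5.95 CPM of *Irf5* against 8.39 to 8.56 CPM. It also had 14.1 CPM of *Cd33* against 11.4 to 11.6 CPM, and 7.89 CPM of *Cd37* against 7.12 to 7.21 CPM. Scr replicate 1 had 17.0 CPM of *Irf8* against 11.3 to 12.3 CPM in the other Scr mice. Ant-134 replicate 3 had 12.96 CPM of *Tyrobp* against 18.4 to 20.0 CPM in the other Ant-134 mice.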

How the results depend on the processing

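The count of members lower at an unadjusted p below 0.05 was 13, and 10 to 17 under the 12 other settings. It was 7 without Scr replicate 1 and up to 19, without Scr replicate 3, when 1 library was left out. The count of members higher was 0 in each of these fits. Taken member by member over these fits, an unadjusted p below 0.05 was gained 37 times and lost 28 times. The number below 0 was 45 to 47 under the settings and 41 to 48 with 1 library left out, and the median ranged from -0.19 to -0.13 and from -0.21 to -0.12. With a replicate block the count was 15, the number below 0 was 45 and the median -0.14. The labels give a number for each mouse and no pairing. The correlations of the deviations of same-numbered mice from their group means were -0.12, -0.07, -0.03 and 0.02. Of the 4 Scr mice, 0 correlated best with the Ant-134 mouse of their own number. The study calls the Scr mice littermates, litters are not given, and these values cannot show whether mice of the 2 groups were related.

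*Siglech* turned to 0.0024 with the Y-linked covariate and to 0.064 with a replicate block, and *Syk* to 0.0023 with a replicate block. With 1 library left out the log2 fold change ranged from -0.17 to 0.031 for *P2ry6*, from -0.12 to 0.059 for *Siglech*, from -0.15 to 0.021 for *Fcrls*, from -0.026 to 0.14 for *Runx1*, from -0.31 to 0.050 for *Fcer1g*, from -0.15 to 0.13 for *Fcgr2b*, from -0.23 to 0.11 for *Fcgr3*, from -0.11 to 0.026 for *Cd33*, from -0.10 to 0.019 for *Syk*, from -0.13 to 0.0017 for *Cd53* and from -0.11 to 0.0050 for *Cd37*; the cause was not tested. A further 22 members kept their sign but moved by over 1.5 times with 1 library left out, 21 of them toward 0 in at least 1 fit and *Ltc4s* only away from it (-0.78 without Ant-134 replicate 1). The smallest values of these 21 came without Scr replicate 1 for *Lyn* (-0.0066), *Fcgr1* (-0.030), *Entpd1* (-0.037), *Ikzf1* (-0.041), *Plcg2* (-0.041), *Cx3cr1* (-0.054), *Gpr34* (-0.083), *P2ry13* (-0.087), *P2ry12* (-0.090), *Bin2* (-0.10), *Irf8* (-0.12) and *Tmem119* (-0.12). They came without Ant-134 replicate 3 for *Ptprc* (-0.077), *Tyrobp* (-0.080), *Ctss* (-0.081) and *Irf5* (-0.13), without Ant-134 replicate 5 for *Sall1* (-0.060) and *Tgfbr1* (-0.13), without Ant-134 replicate 4 for *Cd68* (-0.082), without Scr replicate 2 for *Olfml3* (-0.12) and without Scr replicate 3 for *Slco2b1* (-0.090). The shorter words of PU.1 and RUNX moved the number of promoters from 8 to 26 and from 3 to 13, by construction. The smallest adjusted p of a member was 0.465 in edgeR, 0.0125 in DESeq2 and 0.00469 in edgeR with no filter, and between 0.143 and 0.979 in the other fits. The within-sex-marker values were added after the data were seen. Depth limits *Ltc4s*, *Myo1g* and *Runx1*, which had the fewest read pairs.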
